A study of Mus musculus with 24 samples.

Results

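The Ifi27 family, also called the ISG12 genes, was examined in primary mouse adipocytes in which the long noncoding RNA Ctcflos (1300015D01Rik) had been knocked down. Its members were taken from the deposited expression table by gene symbol, from a list of 4 names (Ifi27, Ifi27l1, Ifi27l2a and Ifi27l2b). The table held 17 of its 168326 transcript entries under 3 of these names, 11 for Ifi27, 4 for Ifi27l2a and 2 for Ifi27l2b, out of 52089 gene symbols in all. No entry carried the name Ifi27l1, which the RefSeq gene table lists as an older name of Ifi27. For each gene the entry with the highest mean level is called its main entry, and the others are described beside it. The family was chosen by the measured levels of Ifi27l2b, whose difference between knockdown and control cells at 72 h, taken relative to that at 24 h, had stood out earlier in these same libraries. The values of Ifi27l2b in every comparison are therefore a description and carry no test, whereas Ifi27l2a and Ifi27 were tested in fits across the whole table.

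ISG12 proteins are small and hydrophobic, and they have been placed in mitochondria, the endoplasmic reticulum and the nuclear envelope. Their genes are classical targets of type I interferon, which acts through its receptor, the kinases JAK1 and TYK2, and a DNA-binding complex that holds STAT2 and IRF9. In fat cells, Ifi27l2a is known under its older name Isg12(b1), which has been described as an inhibitor of differentiation when overexpressed in a preadipocyte line.

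The cells came from 129SvEv mice (named 129S6sv/ev in the methods, which describe males aged 5 to 6 weeks). They were stromal vascular cells of the inguinal depot, cultured with rosiglitazone to become brite adipocytes, white fat cells with heat-producing features of brown fat. All groups shared strain, culture and differentiation, and each culture received a gapmer at 50 nM, that is, an antisense strand with locked nucleic acid ends through which RNase H cuts its target. In knockdown (KD) cells the gapmer was directed at Ctcflos, and in control (NC) cells it had no target. RNA was harvested 24 h or 72 h after transfection, so that KD and NC each had 6 libraries per time. The paper places transfection for these times on the first day after induction, so the cultures were still differentiating. Time after transfection and progress of differentiation therefore cannot be told apart. No untransfected cells were among the libraries, so every level given here is that of a transfected culture, and a single gapmer stands for the knockdown.

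The libraries held 1391832 to 5423840 recovered mapped reads, at a median of 3945867. NC 72 h replicates 2 and 3 differed by less than the sampling noise, and their mean was used as 1 sample, which leaves n = 5 for NC 72 h. Once group means were subtracted, the libraries formed a cluster of 16 and another of 8, called larger and smaller here. The smaller one held replicates 3 and 4 of KD 24 h, 5 and 6 of NC 24 h, 5 and 6 of KD 72 h and 4 and 5 of NC 72 h. Neither the labels nor the methods name a batch that matches this split, so values are given for both clusters. The clusters were drawn from these same libraries, which narrows the spread within groups in advance. Adjusted p-values and counts of calls within clusters are therefore no independent support. All 6 adipocyte markers were present in every group, with a summed level of 27660 to 53740 RPKM that was mostly Fabp4, while Plin1 had group means of only 13.8 to 19.9 RPKM. The endothelial markers summed to at most 3.75 RPKM. Ctcflos was read from its entry of highest mean level, which the paper lists among transcripts 3 and 4. This entry was at 0 to 0.831 RPKM in KD 24 h against 0.674 to 2.87 in NC 24 h, which overlap, and was not tested at 24 h. At 72 h it was at 0 to 0.979 RPKM in KD against 1.48 to 3.86 in NC. The paper's main transcriptome comparison used a gapmer against transcript 1, so these values do not measure the loss of that transcript.

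The 3 genes lie side by side on mouse chromosome 12 in GENCODE M21 (GRCm38). Ifi27 spans chr12:103434211-103440239 on the plus strand with 9 transcripts, 6 of them coding. Ifi27l2a spans chr12:103442167-103443680 and Ifi27l2b chr12:103450898-103457223, both on the minus strand and with 1 coding transcript each. The coding sequences of Ifi27l2a and Ifi27l2b were 85.9% identical over 270 aligned bases, whereas Ifi27 was 67.5% identical to Ifi27l2a and 62.8% to Ifi27l2b. The longest stretch of letters shared by Ifi27l2a and Ifi27l2b was 51 bases, against 11 bases for Ifi27 and either of the others. The coding stretch in which the 2 copies are most alike is printed here, 5′ to 3′, because a short read from it could be placed on either gene. It lies at chr12:103442865-103442954 in Ifi27l2a and at chr12:103451839-103451928 in Ifi27l2b, both on the minus strand of GRCm38 and inside 1 coding exon. Capitals mark the 4 of 90 bases at which they differ.
Ifi27l2a: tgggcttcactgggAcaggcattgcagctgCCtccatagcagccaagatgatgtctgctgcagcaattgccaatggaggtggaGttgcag
Ifi27l2b: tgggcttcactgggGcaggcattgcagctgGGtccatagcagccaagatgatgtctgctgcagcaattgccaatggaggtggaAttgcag
The stretch ends 250 bases before the 3′ end of the Ifi27l2a transcript and 488 bases before that of Ifi27l2b. The handling of reads that match several places is not given in the sources used here, so part of the Ifi27l2b reads could belong to Ifi27l2a or the reverse. The reads recovered for Ifi27l2b amounted to 0.28% to 1.35% of those for Ifi27l2a in NC 72 h and to 3.95% to 12.2% in KD 72 h.

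The genes differed widely in level, expressed here as RPKM, reads per kilobase of transcript, scaled to the mapped reads of the library. Because only the 3′ ends of transcripts were sequenced, RPKM runs high for short entries, and levels are compared between genes with that limit. Ifi27 was abundant in every group, with a mean of 1146 ± 67.8 RPKM in KD 24 h (SD, n = 6) and rank 102 among the 52089 genes. Ifi27l2a was the most variable of the abundant pair and went from rank 382 in NC 24 h to rank 52 in KD 72 h. Ifi27l2b was far below both at 24 h, at rank 5408 in NC 24 h and rank 4902 in KD 24 h. At 72 h it stood at rank 8575 in NC and at rank 1405 in KD. In NC 72 h its order below Ifi27l2a and Ifi27 was clear, and those 2 overlapped, with 986 to 1622 RPKM for Ifi27l2a and 1032 to 1309 for Ifi27.

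**Figure D1:**
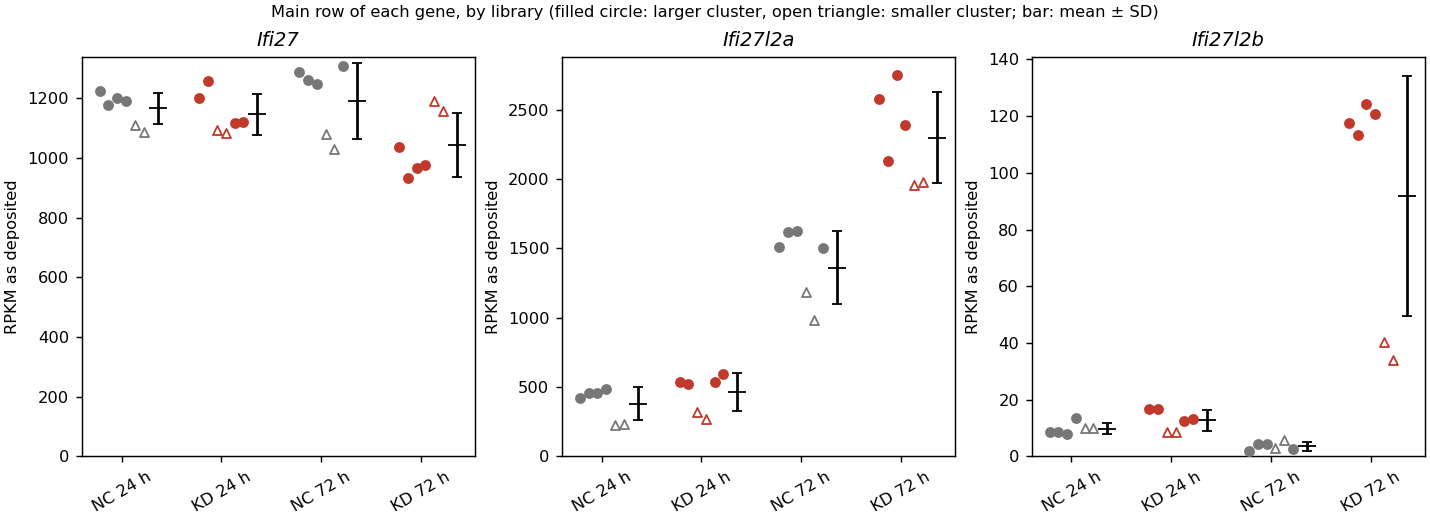
Deposited RPKM of the main entry of Ifi27, Ifi27l2a and Ifi27l2b in each of the 24 libraries, with group on the horizontal axis and RPKM from 0 on the vertical axes, which differ in scale. Filled circles are libraries of the larger cluster, open triangles those of the smaller cluster, and the black bar is the mean ± SD with NC 72 h replicates 2 and 3 as 1 sample. In KD 72 h, Ifi27l2b was at 113 to 124 RPKM in the larger cluster and at 34.1 and 40.5 in the smaller one, and all 6 lie above every other library.

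Ifi27l2b, formerly ISG12(b2), was the member with the widest range. Its main entry (GenBank AK007590, 932 bases) stood in KD 72 h at 118, 113, 124, 121, 40.5 and 34.1 RPKM in replicates 1 to 6. In NC 72 h it stood at 1.85, 4.44, 4.30, 3.03, 5.85 and 2.53 RPKM. The lowest KD library lay well above the highest NC library, where 17.0% of all tested genes had groups without overlap. Replicates 5 and 6 of KD, the pair of the smaller cluster, were the low ones. In reads, these values are 126 to 462 per KD library and 5 to 26 per NC library, so the NC levels rest on few reads, and 3 reads are worth 0.593 to 2.31 RPKM of this entry.

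The mean of Ifi27l2b at 72 h was 91.8 ± 42.4 RPKM in KD (SD, n = 6) and 3.53 ± 1.60 in NC (n = 5), a ratio of 26.03. After scaling, the log2 fold change was 4.34 ± 0.41 (SE), and 13 of 11933 genes were further up. Within the larger cluster the ratio came to 40.8 and within the smaller one to 8.40, with log2 fold changes of 5.18 and 2.78, so the size of the difference varied with the cluster and its direction did not. The second entry, RefSeq NM_145449 of 1093 bases, gave a log2 fold change of 4.34 as well. Both entries held the same highest read number, 462, in KD 72 h and are not independent measurements.

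At 24 h the KD and NC values of Ifi27l2b overlapped. KD 24 h stood at 16.9, 16.6, 8.45, 8.59, 12.6 and 13.1 RPKM and NC 24 h at 8.76, 8.51, 8.05, 13.6, 9.94 and 10.2. The mean was 12.7 ± 3.68 in KD and 9.84 ± 2.02 in NC (SD, n = 6 each), with a log2 fold change of 0.27 ± 0.19 (SE). The clusters differed in sign. The larger cluster gave a log2 fold change of 0.51 and the smaller one -0.22, where both KD libraries lay below both NC libraries. With 2 libraries against 2, as many as 51.2% of all tested genes had groups without overlap in the smaller cluster at 24 h.

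Over time, Ifi27l2b went in opposite directions in the 2 kinds of culture, a contrast that was not tested because the family was chosen by it. In control cells every 72 h library was below every 24 h library, and the mean was 2.79 times lower at 72 h, with a log2 fold change of -1.52 ± 0.26 (SE). Among all tested genes, 7.33% had NC groups without overlap over time. In KD cells every 72 h library was above every 24 h library, and the mean was 7.23 times higher at 72 h. The share of all genes without overlap was not computed for KD cells over time. The combined contrast, the late KD effect minus the early one, was 4.07 ± 0.47 on the log2 scale, with 5 of 13111 genes above it.

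Ifi27l2a, formerly Isg12(b1), showed its main change in the control cells themselves. Its main entry (GenBank AK010014, 408 bases) stood in NC 24 h at 422, 456, 455, 487, 228 and 231 RPKM. In NC 72 h it stood at 1506, 1617, 1626, 1186, 986 and 1499 RPKM. Every 72 h library was above every 24 h library, and the low values at both times were those of the smaller cluster. Of the tested genes, 7.33% had NC groups that did not overlap over time.

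The mean of Ifi27l2a in control cells was 380 ± 118 RPKM at 24 h (SD, n = 6) and 1360.0 ± 264 at 72 h (n = 5), a ratio of 3.58. The log2 fold change was 1.91 ± 0.21 (SE), with an adjusted p of 9.2e-05 in limma. Only 32 of 11677 genes had a larger log2 fold change in this comparison. The rise had the same direction within clusters, with log2 fold changes of 1.80 in the larger and 2.22 in the smaller one. It was the 1 call among the 2 family genes tested over time, where 10.2% of all genes were called, 5.34% higher and 4.83% lower at 72 h. In bulk samples such as these, a larger number of cells that express the gene and more of its RNA per cell cannot be told apart, here and in the comparisons that follow.

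At 72 h Ifi27l2a was higher in KD than in control cells. KD 72 h stood at 2573, 2129, 2752, 2390.2, 1960 and 1974 RPKM, and each of these was above the highest NC 72 h library, at 1626. Of all tested genes, 17.0% had KD and NC groups without overlap at 72 h. The mean was 2296 ± 328 RPKM in KD (SD, n = 6), 1.69 times that of NC. On the scaled values the log2 fold change was 0.52 ± 0.16 (SE), with an adjusted p of 0.03 in limma.

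This call was near the threshold. It was lost without replicate 1, 3 or 4 (adjusted p of 0.076, 0.061 and 0.12 in limma) and with no filter on low values (0.083). The clusters taken separately gave log2 fold changes of 0.45 (larger) and 0.53 (smaller), in the same direction. The 4 Ifi27l2a entries were all called higher, with log2 fold changes of 0.51 to 0.81. Of these, 3 held nearly the same read numbers, up to 4484 to 4600.0 per library in KD 72 h, and so are not independent. The fourth, GenBank AK040279 of 645 bases, held up to 424 reads and gave the value of 0.81.

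At 24 h Ifi27l2a stood in KD at 539, 521, 317, 267, 534 and 597 RPKM, and the range overlapped with that of NC 24 h. The log2 fold change was 0.23 ± 0.22 (SE), with an adjusted p of 0.47 and an unadjusted p of 0.32 in limma, and 0.46 adjusted by voom on recovered reads. Each cluster by itself had no overlap. In the larger cluster KD stood at 521 to 597 and NC at 422 to 487 RPKM, and in the smaller cluster KD stood at 267 to 317 and NC at 228 to 231 RPKM. Such separation within clusters was common at 24 h, since 30.6% of all tested genes had it in the larger cluster and 51.2% in the smaller, against 10.5% over all libraries. The adjusted p-values within clusters were 0.23 and 0.076 in limma.

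Ifi27, the most evenly expressed member, held nearly the same level in control cells at both times. Its main entry was the Ensembl transcript ENSMUST00000153670 of 527 bases, which is annotated as a retained intron and covers the 3′ part of the gene. The mean was 1166 ± 53.3 RPKM in NC 24 h (SD, n = 6) and 1192 ± 127 in NC 72 h (n = 5), with a log2 fold change of 0.05 ± 0.08 (SE) and an adjusted p of 0.76. At 24 h KD and NC also overlapped, with a lowest, median and highest value of 1084, 1119 and 1256 RPKM in KD and of 1088, 1184 and 1223 in NC. The log2 fold change was -0.09 ± 0.08 (SE), with an adjusted p of 0.43 and an unadjusted p of 0.28 in limma, and 0.51 adjusted by voom.

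At 72 h Ifi27 stood at 1035, 932, 966, 978, 1192 and 1159 RPKM in KD. In NC 72 h it stood at 1287, 1260.4, 1246, 1082, 1032 and 1309 RPKM. The groups overlapped, because the clusters went in opposite directions in the deposited values. In the larger cluster all KD libraries were below all NC libraries, and in the smaller cluster both KD libraries were above both NC libraries. Groups without overlap made up 37.5% of all tested genes in the larger and 64.1% in the smaller cluster at 72 h. After scaling, the log2 fold change over all libraries was -0.44 ± 0.09 (SE), with an adjusted p of 0.0037 in limma.

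The call for Ifi27 depended on the scaling and on the cluster. Scaling moved the median log2 fold change of all genes at 72 h from 0.235 to -0.009, and on the values as deposited Ifi27 had a log2 fold change of -0.19 and an adjusted p of 0.18. On scaled values the larger cluster gave -0.61 (adjusted p 9.8e-05) and the smaller one -0.18 (adjusted p 0.31). Of its 11 entries, 9 were called lower, with highest read numbers of 2458 to 2569 per library in KD 72 h, so that they are not independent. The other 2, the retained-intron transcripts ENSMUST00000122905 and ENSMUST00000148824, end before the 3′ end of the gene, held at most 35 reads per library in KD 72 h, and were not called.

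Thus at 72 h both tested members were called, Ifi27l2a higher and Ifi27 lower, where 24.1% of all genes were called, 10.9% higher and 13.3% lower. At 24 h neither was called, where 22.9% of all genes were called, 11.2% higher and 11.7% lower. The difference between the times was not called for either. The interaction was 0.28 ± 0.30 for Ifi27l2a (adjusted p 0.75, unadjusted 0.35) and -0.36 ± 0.11 for Ifi27 (adjusted p 0.20, unadjusted 0.0046) in limma on the log2 scale, and voom gave adjusted p-values of 0.73 and 0.19. In that contrast 0.275% of all genes were called.

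Interferon-stimulated genes other than the family were examined as a list of 58, chosen with earlier results known. In control cells most of them fell between 24 h and 72 h. Of the 55 tested, 45 were called lower and 1 higher, which is 83.6% against 10.2% of all genes (4.83% lower and 5.34% higher). The median log2 fold change was -1.80 against 0.01 over all genes. Mx1, a dynamin-like antiviral GTPase, fell from 23.8 ± 11.5 to 2.42 ± 3.09 RPKM (SD, n = 6 and 5), with a log2 fold change of -3.72 ± 0.55 (SE, adjusted p 0.000668). Rsad2, which makes the antiviral nucleotide ddhCTP, fell by 3.59 on the log2 scale, Ifit3, an RNA-binding antiviral protein, by 3.54 and Oasl1, of the oligoadenylate synthetase-like proteins, by 3.28. Cmpk2, a mitochondrial nucleotide kinase, fell by 3.11 and Ifit1, a cap-sensing antiviral protein, by 3.07. In limma the adjusted p-value was 0.000188 for Oasl1, the lowest of these, and 0.00117 for Cmpk2, the highest.

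The family did not move as a unit beside this list. Ifi27l2a, with its rise of 1.91, stood above all 55 list genes in control cells over time. Ifi27, at 0.05, had 3 list genes above it and 52 below. The log2 fold change of Ifi27l2b, -1.52, lay inside the list, with 21 list genes above and 34 below. The 1 list gene called higher was B2m, the light chain of MHC class I molecules, which rose from 897 ± 212 to 2284 ± 398 RPKM (SD, n = 6 and 5; log2 fold change 1.39 ± 0.16, adjusted p 0.000128).

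**Figure D2:**
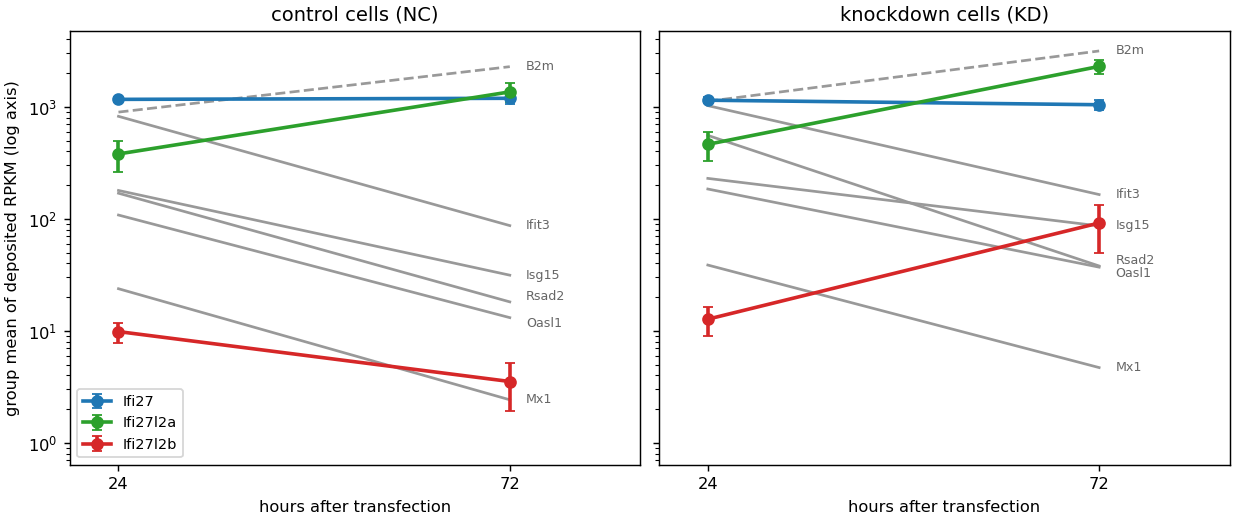
Group means of deposited RPKM on a log axis against hours after transfection, in control cells (left) and KD cells (right). Coloured lines with SD bars are the 3 family genes, solid grey lines are Mx1, Rsad2, Ifit3, Oasl1 and Isg15, and the dashed line is B2m. In control cells Ifi27l2a and B2m go up, from 380 to 1360.0 and from 897 to 2284 RPKM, while the solid grey lines go down. Ifi27l2b goes down in control cells, from 9.84 to 3.53, and up in KD cells, from 12.7 to 91.8.

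Between KD and control cells, the list leaned higher at 72 h. Of 54 list genes tested, 19 were called higher and 1 lower, which is 37.0% against 24.1% of all genes (10.9% higher and 13.3% lower). The median log2 fold change was 0.71 against -0.01 over all genes. Oasl1 was higher by 1.57 ± 0.39 on the log2 scale (SE, adjusted p 0.0104), Isg15, a ubiquitin-like modifier, by 1.39 ± 0.34 (adjusted p 0.0094), and Irgm1, an immunity-related GTPase, by 1.39 ± 0.35 (adjusted p 0.0109). Mx2 was higher by 1.36, Oas1b by 1.23 and Bst2, which tethers virus particles, by 1.09, with adjusted p-values of 0.0151, 0.0149 and 0.0237. Lgals3bp, a secreted glycoprotein, was lower, at -0.45 ± 0.14 (adjusted p 0.0294). In level, Isg15 was at 86.4 ± 20.1 RPKM in KD 72 h and at 31.4 ± 18.3 in NC 72 h (SD, n = 6 and 5), and both were below its 179 ± 59.2 in NC 24 h (n = 6). The count of called list genes was 7, 13 and 8 without replicate 1, 2 or 4, 10 in the larger cluster, 29 in the smaller cluster and 35, all higher, on the values as deposited, with medians of 0.37 and 1.04 in the clusters.

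The place of Ifi27l2b beside this list at 72 h is a description, since its difference there brought the family up. Its log2 fold change of 4.34 was above those of all 54 list genes, of which the highest was 1.57. The value of Ifi27l2a, 0.52, lay inside the list, with 34 list genes above and 20 below, and Ifi27, at -0.44, had 53 above and 1 below. The clusters with the larger and the smaller difference were not the same for the list and for Ifi27l2b. The list median was higher in the smaller cluster, and the log2 fold change of Ifi27l2b was higher in the larger one. That contrast between clusters was not tested.

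**Figure D3:**
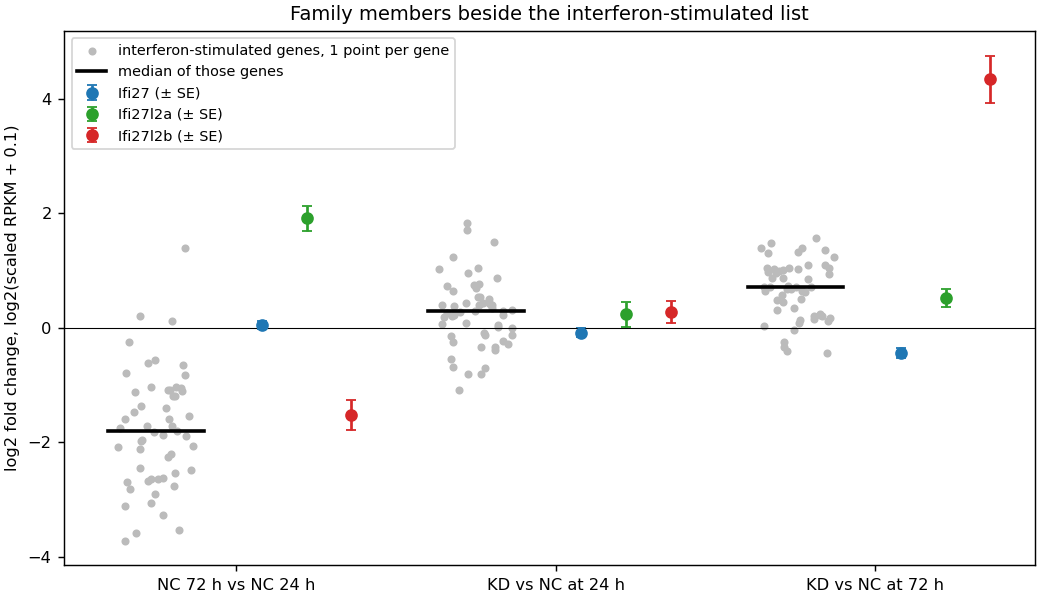
Log2 fold changes (scaled RPKM + 0.1) in 3 comparisons. Grey points are the interferon-stimulated genes, 1 point per gene and 54 or 55 per comparison, the black line is their median, and coloured points are the family genes with SE. In control cells over time Ifi27l2a, at 1.91, lies above all grey points, whose median is -1.80. At 72 h Ifi27l2b, at 4.34, lies above all grey points, whose median is 0.71, but its difference there brought the family up, so its place is a description.

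At 24 h the share of list genes called was near that of all genes. Of 55 genes tested, 10 were called higher and 3 lower, which is 23.6% against 22.9% of all genes, with a median log2 fold change of 0.29 against -0.01. The largest values were those of Ifit2, an antiviral RNA-binding protein, at 1.83 ± 0.54 (SE, adjusted p 0.0243), Cmpk2 at 1.71 ± 0.49 (adjusted p 0.0216) and Rsad2 at 1.50 ± 0.45 (adjusted p 0.0269). Isg20, an exonuclease, Adar, an RNA-editing deaminase, and Psmb8, an immunoproteasome subunit, were higher by 1.24, 1.04 and 1.02. Parp12, Lgals3bp and Dhx58 were lower, at -1.08, -0.71 and -0.69. Both Ifi27l2a and Ifi27l2b lay near the middle of the list, with 30 and 29 list genes above them. The count was 4 without replicate 1 or 5, 23 in the larger cluster and 6 in the smaller cluster. In the interaction 0 of 55 list genes were called by limma or by voom, and 11 had an unadjusted p under 0.05 in limma.

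The upstream genes were followed as a second list of 21, of which 18 were tested in each comparison of groups. Of the ligands, Ifnb1 was listed at no more than 2.80 RPKM in any library and did not pass the filter. It was at 0 in all 6 libraries of KD 72 h and in 5 of NC 72 h. Of the receptors, Ifnar2 was called higher in control cells at 72 h (0.93 ± 0.23, adjusted p 0.0224), and Ifnar1, Ifngr1 and Ifngr2 were called in none of the 3 comparisons.

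The kinase Jak1 was lower in KD cells at both times, at -0.70 ± 0.20 at 24 h (SE, adjusted p 0.0244) and -0.88 ± 0.19 at 72 h (adjusted p 0.00466). Irf9, the DNA-binding subunit of the interferon-responsive complex, was higher in KD cells by 0.65 ± 0.13 at 24 h (adjusted p 0.00419) and by 0.75 ± 0.16 at 72 h (adjusted p 0.00493). Irf7, which amplifies interferon production, was higher at 72 h by 1.05 ± 0.17 (adjusted p 0.000619). Irf3, its constitutive relative, was lower at 72 h, at -0.81 ± 0.21 (adjusted p 0.0136), and Tlr3, a sensor of double-stranded RNA, was higher at 24 h by 0.84 ± 0.24 (adjusted p 0.0234).

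Of the 18 signalling genes tested, 2 were called higher and 2 lower in KD at 24 h and 2 higher and 3 lower at 72 h. These shares, 22.2% and 27.8%, were near the 22.9% and 24.1% of all genes. In control cells over time 6 of 18 fell and 1 rose, which is 38.9% against 10.2% of all genes. Among them, Stat2 fell by 1.53 and Tlr3 by 2.21 on the log2 scale, with adjusted p-values of 0.00159 and 0.00051. Irf1 fell by 1.02, Tbk1, a kinase that activates IRF3, by 0.67 and Irf9 by 0.50 (adjusted p-values 0.0159, 0.00267 and 0.0483). Stat2 and Irf9 fell in the control cells in which Ifi27l2a rose, and a link between these changes was not tested.

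A list of 5 genes reported to bind ISG12 proteins or to take part in their effects held the nuclear receptors Nr4a1, Nr4a2 and Nr4a3, the exportin Xpo1 and the ubiquitin ligase subunit Skp2. Nr4a1 was called higher in KD 72 h, by 2.21 ± 0.46 on the log2 scale (SE, adjusted p 0.00381), at a low level of 1.95 ± 0.81 RPKM in KD and 0.33 ± 0.22 in NC (SD, n = 6 and 5). Among the comparisons of groups, Nr4a1 passed the filter in this one alone. It passed through the KD libraries, in which it was high (1.20 to 3.45 RPKM, against 0 to 0.595 in NC), so its call is no independent support. Xpo1 and Skp2 were not called in any comparison, and Nr4a2 and Nr4a3 did not pass the filter in the comparisons of groups. Of 9 chromosomal neighbours, 4 were at 0 in all libraries and 1, the RNA helicase Ddx24, was tested. It fell in control cells over time by 0.47 on the log2 scale (adjusted p 0.00428), opposite to Ifi27l2a, and was not called in KD at 24 h or 72 h (0.18 and 0.27, adjusted p-values 0.54 and 0.062).

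Genes whose pattern across the 23 samples was most like that of a member were sought among 13108 genes by Pearson's r of log2 values. This is a description, since samples share group, cluster and depth. Closest to Ifi27l2b were Akr1b3, an aldose reductase (r = 0.925), the entry named AK054167 (0.895), Anxa8, an annexin (0.894), Krt19, a simple-epithelium keratin (0.881) and Limk2, a kinase of cofilin (0.864). Akr1b3 was at 174 ± 30.5 RPKM in KD 72 h and at 16.6 ± 3.69 in NC 72 h (SD, n = 6 and 5), and Krt19 at 150 ± 24.3 and 21.5 ± 3.07. The highest r of Ifi27l2b with a gene of the interferon-stimulated list was 0.727.

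Closest to Ifi27l2a was B2m (r = 0.986), followed by Tpsab1, a mast cell tryptase (0.957), the chemokine Ccl8 (0.946), Pltp, a phospholipid transfer protein (0.938), and Cthrc1, a secreted collagen-repeat protein (0.937). Tpsab1 was at 256 ± 64.5 RPKM in NC 24 h and at 955 ± 275 in NC 72 h, and Ccl8 at 68.2 ± 33.0 and 295 ± 164 (SD, n = 6 and 5). The members themselves were less alike, with r = 0.385 between Ifi27l2a and Ifi27l2b, -0.431 between Ifi27 and Ifi27l2a and -0.857 between Ifi27 and Ifi27l2b.

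**Figure D4:**
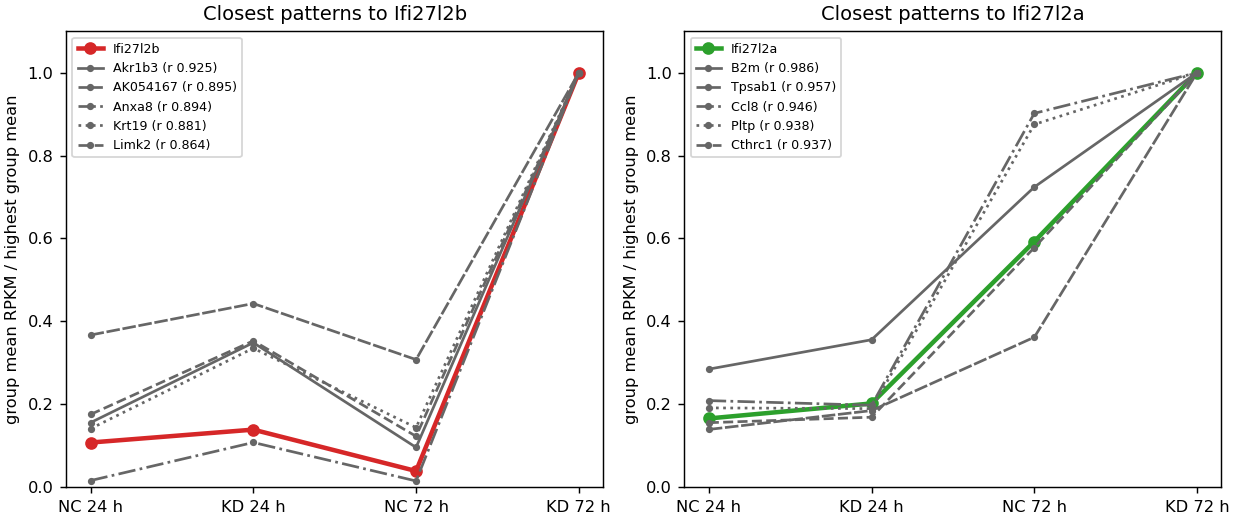
Group means of deposited RPKM, each divided by the gene's highest group mean, for Ifi27l2b (left) and Ifi27l2a (right) in colour and for the 5 genes most correlated with each in grey. The Ifi27l2b set is low in NC 72 h and high in KD 72 h. The Ifi27l2a set is low in both 24 h groups and higher in both 72 h groups.

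Markers of cells that could carry interferon-stimulated transcripts were read beside these results. Of 12 macrophage and leukocyte markers, 11 were in the table and 4 passed the filter. Their summed level was 14.9 to 90.2 RPKM in KD 24 h, 27.6 to 132 in NC 24 h, 33.6 to 45.1 in KD 72 h and 40.4 to 128 in NC 72 h, so the ranges overlap. Cd68 and Csf1r were higher in KD at 24 h, by 1.23 and 1.28 (adjusted p-values 0.0177 and 0.00371), and at 72 h, by 1.94 and 1.24 (adjusted p-values 0.00953 and 0.00188), whereas Lyz2 was lower at 72 h, at -3.94 (adjusted p 0.000599). In control cells over time, where Ifi27l2a rose, Csf1r rose by 0.87 (adjusted p 0.0174). The pan-leukocyte gene Ptprc had means of 0.05 to 0.20 RPKM in the 4 groups. Mesothelial and epithelial markers summed to 141 to 200.0 RPKM in KD 72 h against 50.6 to 62.3 in NC 72 h, of which Krt19 made up the most. Its log2 fold change was 2.54 (adjusted p 5.54e-07), while Lrrn4 was lower, at -0.78 (adjusted p 0.000895), and 1 of the 8 markers was at 0 in all libraries. Of the preadipocyte and stromal markers, 5 were tested at 72 h, and Cd34 and Pdgfrb were higher in KD by 2.29 and 0.59 (adjusted p-values 0.00431 and 0.00804). At 72 h Cd34 passed the filter through the KD libraries, in which it was high (1.35 to 3.13 RPKM, against 0 to 0.707 in NC), so its call is no independent support. The summed level of the preadipocyte and stromal markers was 810.5 to 965 RPKM in KD 72 h and 371 to 953 in NC 72 h, which overlap. Of 4 such markers tested in control cells over time, Thy1 alone was called and rose by 0.74 (adjusted p 0.00298). There 10.2% of all genes were called. The part of these cells in the levels of the Ifi27 family was not tested.

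Adipocyte markers were lower or not called in KD cells. Adipoq, a hormone of fat cells, had log2 fold changes of -0.54 at 24 h and -0.94 at 72 h (adjusted p-values 0.0247 and 0.000944), and Fabp4, a fatty acid carrier, of -0.58 at 72 h (adjusted p 0.00639). In all, 3 of 6 were called lower at 24 h and 2 of 6 at 72 h, where 11.7% and 13.3% of all genes were called lower. Adipoq and Fabp4 also fell in control cells over time, by 0.46 and 0.27 on the log2 scale (adjusted p-values 0.000113 and 0.0433).

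The brite markers moved in the other direction from Ifi27l2b and Ifi27l2a in KD 72 h. All 5 were called lower, where 13.3% of all genes were. Ucp1, the uncoupling protein, was at -2.38 ± 0.22 (SE, adjusted p 9.39e-06) and Cidea, a lipid droplet protein, at -1.70 ± 0.21 (adjusted p 8.34e-05). In control cells over time, however, Ucp1 and Cidea rose by 2.49 and 2.32 on the log2 scale (adjusted p-values 3.11e-05 and 5.35e-05), in the same cells in which Ifi27l2a rose. Over all 5 brite markers, 3 were called higher and 1 lower there, against 5.34% and 4.83% of all genes. The 1 called lower was Ppargc1a, a transcriptional coactivator, at -0.54 (adjusted p 0.0288).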

How the data were processed

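Transcript levels were measured in 24 libraries by BRB-seq, in which barcoded oligo-dT primers mark each sample and 3′ ends are sequenced. The authors mapped reads with the Genomatix suite, whose version, genome build and treatment of strand and multiply placed reads are not given in the sources used here. The deposited unit is RPKM. Read numbers were recovered from the RPKM steps (tolerance 0.1 read), with 95.1% to 95.6% of low values whole in 23 libraries and 74.5% in NC 72 h replicate 6, where 21.8% lay on steps of 0.5. NC 72 h replicates 2 and 3 differed by 0.348 of counting noise, against 1.92 for the next of 276 pairs. Statements on depth cover counting error only.

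Groups and replicate numbers are those of the sample titles. RPKM were scaled by a trimmed mean of log ratios, and log2(RPKM + 0.1), which understates the change of low genes, was fitted with limma 3.58.1 (lmFit, eBayes with trend, R 4.3.3). An entry passed the filter if its RPKM was worth 10 reads at median library depth in at least the smaller group's number of samples. It also had to be worth 15 such reads in total. Adjusted p-values are two-sided Benjamini-Hochberg values over all entries, called under 0.05. Counts of genes use the entry of highest mean RPKM. Values per library and mean ± SD are of deposited RPKM. The methods call the samples biological replicates, but the labels name no cultures, so p-values measure the spread between these samples. The fit was tested on simulated data. The members and lists were chosen with earlier results of these data known, and not every listed gene is reported here by name. Named list genes are the called genes of largest log2 fold change, up to 6 per direction for the interferon lists and 3 for others, and genes by role. The knockdown of Ctcflos, KD against NC at each time, NC over time and the interaction were examined, with 18 alternative settings, among them limma's voom on recovered reads. Same-numbered samples did not deviate together (mean correlations of -0.0507, 0.00853 and 0.0147).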

Additional observations from a re-analysis of the deposited data

Results flagged for a closer look

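Ifi27l2b differed in its change over time between KD and control cells. The log2 ratio of mean deposited RPKM, 72 h over 24 h, was 2.85 in KD cells and -1.48 in control cells. Every KD library moved one way and every control library the other, in that the 72 h and 24 h ranges did not overlap in either. Groups without overlap over time made up 7.33% of tested genes in control cells and were not counted in KD cells. The difference of Ifi27l2b was not tested, since the gene was chosen by it. None of the 12 groups of main-entry values held a sample far from the others by Dixon's criterion. That criterion looks for a single distant value and can miss a pair that is low together. Ifi27l2b in KD 72 h held such a pair, with 34.1 and 40.5 RPKM in the smaller cluster against 113 to 124 in the larger.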

How the results depend on the processing

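The rise of Ifi27l2a in control cells kept its direction and its call in all 20 alternatives run. The positive difference of Ifi27l2b at 72 h kept its sign in all 18, which is a description and no support, since it brought the family up in these same libraries. Within the larger cluster that difference was 5.18 and within the smaller cluster 2.78, and the smaller cluster gave 3.00 for the Ifi27l2b interaction and -0.22 at 24 h, where the direction turned. Leaving out replicates gave 4.04 to 4.76 for Ifi27l2b at 72 h. The 72 h call of Ifi27l2a was lost with no filter on low values (0.52), with a replicate block (0.45, adjusted p 0.076 in limma) and without replicate 1, 3 or 4, while it was kept without replicate 2, 5 or 6, and the values with replicates left out ranged from 0.43 to 0.63. The replicate block moved the count of genes called in control cells over time from 1187 to 760 and in the interaction from 36 to 19, and changed no other call of a family gene. The 72 h call of Ifi27 was lost on RPKM as deposited (-0.19), in the smaller cluster (-0.18) and in the entries ENSMUST00000122905 and ENSMUST00000148824 (-0.66 and -0.46). At 24 h, 23 interferon-stimulated genes were called in the larger cluster and 6 in the smaller, at 72 h 35 on RPKM as deposited and 10 in the larger cluster, and in the interaction 1 on RPKM as deposited, 1 in the larger cluster and 7 in the smaller one. With replicates left out the count was 4 to 17 at 24 h, 7 to 27 at 72 h, 41 to 46 in control cells over time and 0 to 1 in the interaction. The 2 alternatives that leave out KD 24 h replicate 6, the shallowest library, or NC 72 h replicate 6, the one with steps of 0.5, were chosen after seeing the data. The causes were not tested. Counts of genes called moved by over 1.5 times in several settings, at 24 h from 2644 to 1456 without replicate 2, 1516 without replicate 1, 1668 without replicate 5 and 501 in the smaller cluster, and at 72 h from 2878 to 1902 without replicate 1 and 1723 in the smaller cluster. In control cells over time the smaller cluster gave 520, and the interaction count was 212 on RPKM as deposited, 73 and 61 with pseudocounts of 1 and 0.5, 57 with all NC 72 h libraries separate, 261 and 567 in the larger and smaller clusters and 1 to 56 with replicates left out. Signalling genes called numbered 2 to 5 at 24 h and 4 to 7 in control cells over time with replicates left out, and 1, 4 and, in the interaction, 4 in the smaller cluster. On RPKM as deposited, 2939 genes were called higher and 794 lower at 72 h, against 1295 and 1583. The limit of depth is the control level of Ifi27l2b at 72 h, which rests on 5 to 26 reads per library, so its ratio is less certain than its direction.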
